A study of Mus musculus with 48 samples.

Results

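The 10 genes described here are widely used markers of microglia: Cx3cr1, P2ry12, Csf1r, Aif1, Itgam, Tmem119, Trem2, C1qa, C1qb and C1qc. They were measured by every array probe that carries one of these names and is no control, which gave 15 of the 55681 probes. All 15 were detected in the medial prefrontal cortex (mPFC) and 9 were detected in blood. The arrays came from 24 female C57BL/6J mice aged 17 weeks, with mPFC and blood taken from the same mouse. Control mice (n = 6) had a sham operation and no stress, CUMS mice (n = 6) had the sham operation followed by chronic ultra-mild stress, OVX mice (n = 6) had both ovaries removed, and OVX+CUMS mice (n = 6) had both. All groups thus went through surgery under anaesthesia. The mPFC was taken as whole tissue and the blood as a centrifuged cell pellet, so neither was sorted for a cell type.

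Microglia are the resident macrophages of the brain. They arise from yolk sac progenitors, depend on signalling through the receptor Csf1r for survival, and scan the tissue with motile processes that respond to fractalkine through Cx3cr1 and to nucleotides through P2ry12. They are also the main source in brain of C1q, the recognition molecule of the classical complement pathway, which tags synapses and debris for removal. Several of the same genes are used by other myeloid cells, among them blood monocytes and, for Itgam, neutrophils.

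The microarrays were read as log2 of the processed spot signal minus the 75th percentile of the array, so a value of 0 marks a probe at that percentile, and a difference of 1 is a doubling. Levels are given only for the same probe across samples. Each slide carried 8 arrays, and in both tissues the groups were split unevenly over 3 slides: slide 1 held the 6 control mice and 2 CUMS mice, slide 2 held 4 CUMS and 4 OVX mice, and slide 3 held 2 OVX mice and all 6 OVX+CUMS mice. Control and ovariectomised mice never shared a slide, so the main ovariectomy results below are given with their values after slide was added to the model. OVX+CUMS mouse 5 stood apart in both tissues. Its mean level over 9 neutrophil markers in blood was 3.08 above the average array, against at most 0.42 on any of the other 23 blood arrays, and over the 4 neutrophil markers detected in mPFC it was 2.20, against at most 0.55. The labelled tissues were checked against markers: all 7 neuron and all 7 astrocyte markers were detected in mPFC, where 4 of 11 neutrophil markers (Camp, Elane, Lcn2 and S100a9) and 6 of 8 erythroid markers were also detected, while all 8 erythroid and 9 of 11 neutrophil markers were detected in blood, as were 6 of 7 oligodendrocyte, 3 of 7 neuron and 2 of 7 astrocyte markers.

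Itgam, the alpha chain of complement receptor 3 (CD11b), was read by 3 probes that did not behave alike, and their sequences are shown because the results below turn on which one is read. The first lies at chr7:135212140-135212199, the second at chr7:135260275-135260334 and the third at chr7:135261755-135261814, all on the plus strand of mouse build mm9, starting at bases 270, 3410 and 4431 of the transcript. The first 2 are printed whole, and of the third the first 30 bases are shown, with its run of CA repeats in capitals.
A_55_P1977926: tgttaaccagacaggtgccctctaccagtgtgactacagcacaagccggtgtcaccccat
A_55_P1977929: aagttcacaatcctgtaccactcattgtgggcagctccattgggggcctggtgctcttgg
A_55_P1977934: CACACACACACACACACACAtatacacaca
The run in the third probe is 20 bases long, and 22 probes of the array hold such a run. All 22 were detected in both mPFC and blood. A probe of this kind can bind other transcripts that carry the repeat, so A_55_P1977934 is reported without being read as a level of Itgam.

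The genes of C1q, whose levels moved together from mouse to mouse as described below, lie side by side on chromosome 4. RefSeq promoter entries (GRCm38.p6) were matched for 7 of the 9 members looked up. Csf1r was not looked up, and C1qa and Tmem119 were not matched, so the counts below leave these genes out. The windows of C1qb and C1qc are shown as the 250 bases before the transcript start, read 5′ to 3′ on the minus strand, at chr4:136886201-136886450 and chr4:136892915-136893164. Capitals mark the letters GAGGAA or, on the other strand, TTCCTC, the core of the motif of the myeloid factor PU.1.
C1qb: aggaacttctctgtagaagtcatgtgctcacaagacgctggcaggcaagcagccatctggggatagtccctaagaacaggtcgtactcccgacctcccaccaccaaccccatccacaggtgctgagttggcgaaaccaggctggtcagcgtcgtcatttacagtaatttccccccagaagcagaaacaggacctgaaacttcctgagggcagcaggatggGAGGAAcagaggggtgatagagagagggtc
C1qc: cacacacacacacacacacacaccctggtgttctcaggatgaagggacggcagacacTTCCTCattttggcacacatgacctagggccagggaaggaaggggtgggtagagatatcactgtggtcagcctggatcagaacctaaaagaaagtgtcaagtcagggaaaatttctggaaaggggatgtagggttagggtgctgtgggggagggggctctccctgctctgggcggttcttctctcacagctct
These letters were found on either strand in 5 of the 7 windows, those of Aif1, C1qb, C1qc, Itgam and Trem2, and in 23.3% of 32851 mouse promoter windows of the same length. The match describes the letters of the windows and no binding was measured.

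In mPFC, 11 of the 15 probes differed with ovariectomy, 10 of them higher and 1 lower, where 30.9% of all 28360 detected probes differed (19.1% higher and 11.7% lower). The ovariectomy effect is the mean of OVX and OVX+CUMS mice minus the mean of control and CUMS mice, tested with limma and adjusted over all detected probes. The 10 higher probes read 8 genes, namely Cx3cr1, Csf1r, Aif1, Itgam, Tmem119, Trem2, C1qa and C1qb. The changes were small, with a median over the 15 probes of 0.16 on the log2 scale against 0.04 over all detected probes. None of the 15 passed the test once slide was a block (limma, 0 at an unadjusted p under 0.05 as well), and none of the 28360 probes passed it. When arrays were scaled on the spike-in probes in place of the 75th percentile, the median of all detected probes moved to -0.09, and the members called were 1 higher (Itgam A_55_P1977929) and 2 lower (Csf1r A_55_P2025073 and Itgam A_55_P1977934). The share of all detected probes called with this scaling is not given here. In bulk tissue, fewer or more cells of a type and less or more RNA per cell cannot be told apart.

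**Figure D1:**
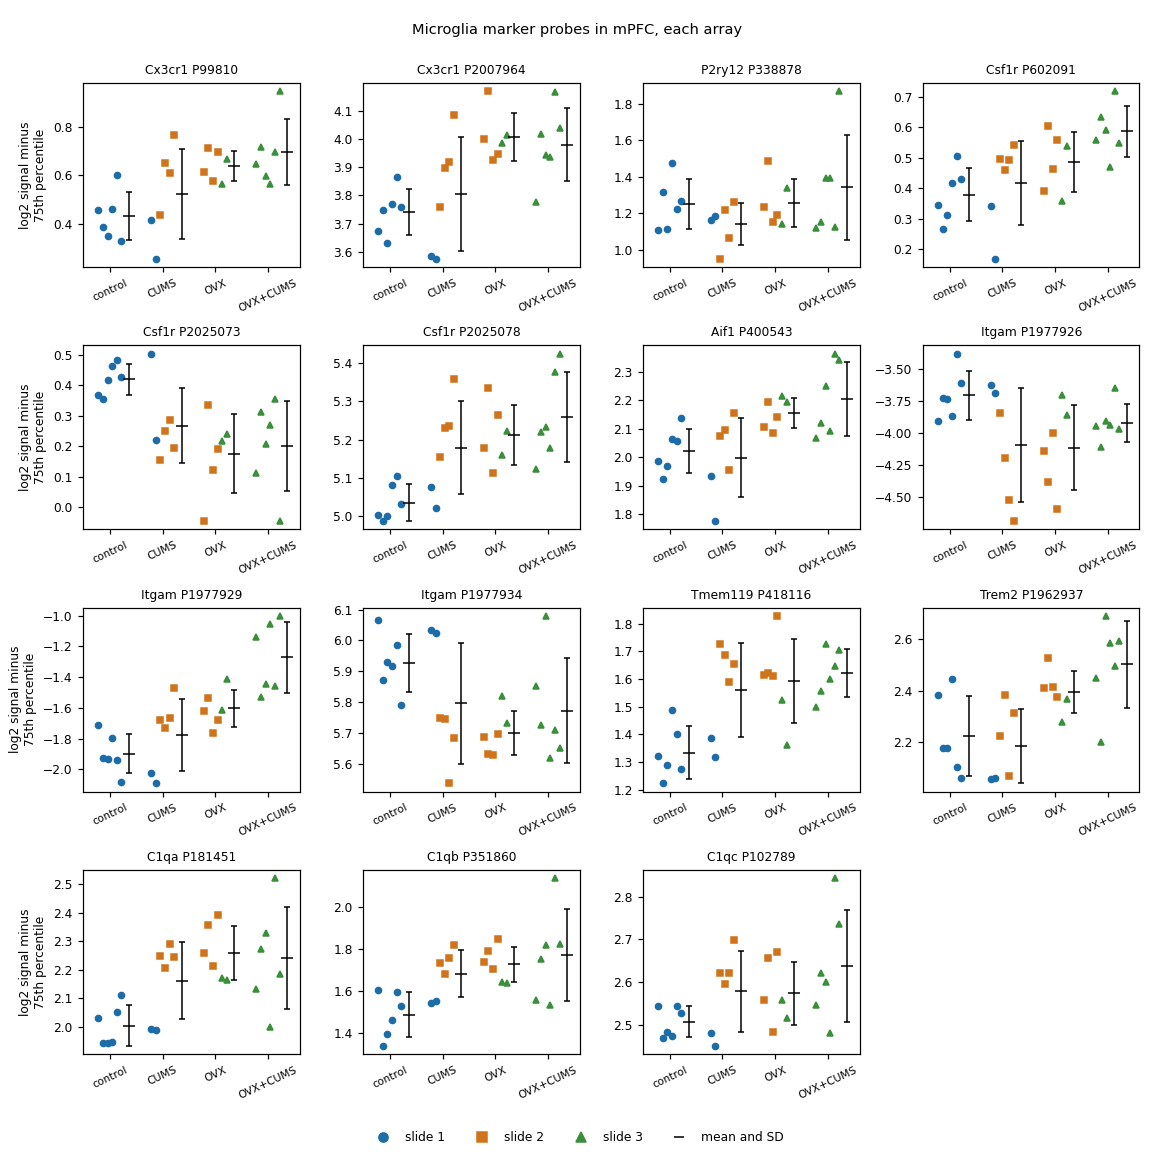
Level of each of the 15 probes in the 24 mPFC arrays, as log2 signal minus the array's 75th percentile (y axis), by group (x axis). Each point is 1 mouse, its colour and shape give the slide, and the bars are the group mean and SD (n = 6). For Cx3cr1 A_55_P2007964, Csf1r A_55_P2025078, C1qa and C1qb the 6 OVX mice lie above the 6 control mice, and the CUMS mice of slide 1 lie lower than those of slide 2. Control and OVX mice shared no slide, and the share of all detected probes that separate in this way is not given here.

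Cx3cr1, the receptor for neuronal fractalkine, was read by probes at chr9:119959018-119959077 (A_52_P99810) and chr9:119957811-119957870 (A_55_P2007964, mm9, minus strand). For A_55_P2007964 the lowest, median and highest levels were 3.63, 3.75 and 3.87 for control and 3.58, 3.83 and 4.09 for CUMS mice. They were 3.92, 3.99 and 4.17 for OVX and 3.78, 3.98 and 4.17 for OVX+CUMS mice. All 6 OVX mice were above every control mouse, as were 5 of 6 OVX+CUMS mice, while the CUMS mice spanned the control range on both sides. The ovariectomy effect was 0.22 (SE 0.05, adjusted p = 0.00387) for this probe and 0.19 (SE 0.05, adjusted p = 0.00888) for A_52_P99810. The effects were 0.0032 (SE 0.10) and 0.02 (SE 0.10) with slide as a block.

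P2ry12, the ADP receptor that steers microglial processes, was read by 1 probe at chr3:59020598-59020657 (mm9). Its levels were 1.11, 1.24 and 1.48 for control and 1.14, 1.21 and 1.49 for OVX mice, given as lowest, median and highest. They were 0.95, 1.17 and 1.26 for CUMS and 1.12, 1.27 and 1.87 for OVX+CUMS mice. All 4 groups overlapped, and the ovariectomy effect of 0.10 (SE 0.07, adjusted p = 0.291) did not pass the test. It was 0.15 (SE 0.17) with slide as a block.

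Csf1r, the receptor for the survival factors Csf1 and Il34, was read by 3 probes that did not move in one direction. For A_55_P2025078 the lowest, median and highest levels were 4.99, 5.02 and 5.10 for control, 5.02, 5.19 and 5.36 for CUMS, 5.11, 5.20 and 5.33 for OVX and 5.12, 5.23 and 5.42 for OVX+CUMS mice. For A_55_P2025073 they were 0.35, 0.42 and 0.48 for control, 0.155, 0.23 and 0.50 for CUMS, -0.04, 0.20 and 0.33 for OVX and -0.04, 0.24 and 0.35 for OVX+CUMS mice. By the first of these probes all 12 ovariectomised mice were above every control mouse, and by the second all 6 OVX mice were below them. The ovariectomy effects were 0.13 (SE 0.04, adjusted p = 0.0203) and -0.15 (SE 0.05, adjusted p = 0.0192), and the third probe, A_52_P602091, gave 0.14 (SE 0.04, adjusted p = 0.0197). Along the transcript, A_55_P2025073 starts at base 1841, A_52_P602091 at base 2871 and A_55_P2025078 at base 3806. Slide as a block gave 0.02 for A_55_P2025078, -0.11 for A_55_P2025073 and 0.01 for A_52_P602091.

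Aif1 encodes Iba1, the actin-binding protein by which microglia are usually stained, and its probe lies at chr17:35307959-35308018 (mm9). Its levels were 1.92, 2.02 and 2.14 for control, 1.78, 2.01 and 2.15 for CUMS, 2.08, 2.17 and 2.21 for OVX and 2.07, 2.18 and 2.36 for OVX+CUMS mice (lowest, median and highest). Of the 6 OVX mice 4 were above every control mouse, and of the 6 OVX+CUMS mice 3 were. The ovariectomy effect was 0.17 (SE 0.04, adjusted p = 0.00576), and -0.02 (SE 0.09) with slide as a block.

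Itgam A_55_P1977929, the second of the sequences shown above, gave the largest ovariectomy effect of the 15 probes when arrays were scaled to the 75th percentile and slide was left out. Its lowest, median and highest levels were -2.08, -1.93 and -1.71 for control and -2.09, -1.70 and -1.47 for CUMS mice. They were -1.76, -1.62 and -1.41 for OVX and -1.53, -1.29 and -1.003 for OVX+CUMS mice. All 6 OVX+CUMS mice and 5 of 6 OVX mice were above every control mouse. The ovariectomy effect was 0.40 (SE 0.07, adjusted p = 0.000395), and OVX+CUMS mice exceeded control mice by 0.63 (SE 0.10, adjusted p = 0.000122). OVX+CUMS mouse 5, with its high neutrophil markers, had a level of -1.46, near the low end of its group, and without its array the ovariectomy effect was 0.42 (adjusted p = 0.000444). Once slide was a block, the effect was 0.03 (SE 0.14). The other Itgam probes gave -0.12 (SE 0.12, adjusted p = 0.479) for A_55_P1977926 and -0.12 (SE 0.06, adjusted p = 0.105) for the repeat-bearing A_55_P1977934. Both were near 0 with slide as a block, at -0.01 and 0.03. The 22 probes with the repeat, which include A_55_P1977934, had a median of -0.12, with 3 of them lower and 0 higher. Of all detected probes, 11.7% were lower and 19.1% higher. The part of the repeat in these values was not tested.

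Tmem119, a membrane protein of microglia with little expression in other brain cells, was read at chr5:114243962-114244021, and Trem2, the lipid-sensing receptor that signals through Tyrobp, at chr17:48491537-48491596 (mm9). The lowest, median and highest levels of Tmem119 were 1.22, 1.31 and 1.49 for control, 1.32, 1.62 and 1.73 for CUMS, 1.36, 1.61 and 1.83 for OVX and 1.498, 1.62 and 1.73 for OVX+CUMS mice. Those of Trem2 were 2.06, 2.18 and 2.45 for control, 2.05, 2.145 and 2.38 for CUMS, 2.28, 2.39 and 2.53 for OVX and 2.20, 2.54 and 2.69 for OVX+CUMS mice. Tmem119 was above every control mouse in 5 of 6 OVX and 6 of 6 OVX+CUMS mice, and Trem2 in 1 of 6 and 5 of 6. The ovariectomy effect was 0.16 (SE 0.05, adjusted p = 0.0246) for Tmem119 and 0.25 (SE 0.06, adjusted p = 0.00255) for Trem2. They were 0.10 (SE 0.09) and 0.19 (SE 0.12) with slide as a block, neither past the test.

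C1qa, C1qb and C1qc encode the chains of C1q and were read at chr4:136452409-136452468, chr4:136436578-136436637 and chr4:136445766-136445825 (mm9), the last by 10 spots per array. The lowest, median and highest levels of C1qa were 1.94, 1.99 and 2.11 for control, 1.99, 2.23 and 2.29 for CUMS, 2.16, 2.24 and 2.39 for OVX and 2.00, 2.23 and 2.52 for OVX+CUMS mice. Those of C1qb were 1.34, 1.49 and 1.61 for control, 1.54, 1.71 and 1.82 for CUMS, 1.64, 1.72 and 1.85 for OVX and 1.53, 1.79 and 2.14 for OVX+CUMS mice. For both genes all 6 OVX mice were above every control mouse, and 4 of 6 CUMS mice were. C1qc spanned 2.47 to 2.54 for control, 2.45 to 2.70 for CUMS, 2.48 to 2.67 for OVX and 2.48 to 2.84 for OVX+CUMS mice. The ovariectomy effect was 0.17 (SE 0.05, adjusted p = 0.0176) for C1qa and 0.16 (SE 0.06, adjusted p = 0.0316) for C1qb, and that of C1qc was 0.06 (SE 0.04, adjusted p = 0.233), which did not pass the test. The same 3 effects with slide as a block were 0.09, 0.12 and -0.01.

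**Figure D2:**
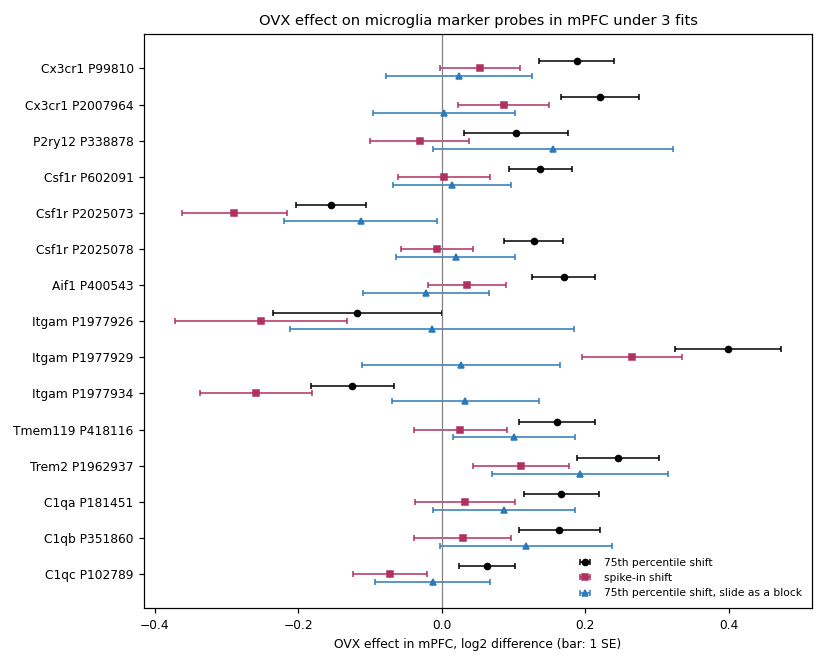
Ovariectomy effect on each of the 15 probes in mPFC (x axis, log2 difference; bars are 1 SE) as fitted with the 75th percentile scaling, with slide as a block and with the spike-in scaling. The Itgam probe A_55_P1977929 lies at 0.40, 0.03 and 0.26 in these fits, and with slide as a block no probe passed the test.

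The slides could be compared within CUMS mice, of which 2 lay on slide 1 beside the control mice and 4 on slide 2 beside OVX mice. Between these mice, which had the same treatment, 4 of 15 probes differed where 16.2% of all detected probes did, and 11 of 15 were higher on slide 2, with a median of 0.20. Itgam A_55_P1977929 was higher on slide 2 by 0.42, Tmem119 by 0.31 and C1qa by 0.26, and Itgam A_55_P1977934 was lower (-0.35). The mean of C1qa was 2.00 in control mice and 1.99 in CUMS mice of slide 1, and 2.25 in CUMS mice and 2.31 in OVX mice of slide 2. OVX mice could be compared between slides 2 and 3 in the same way, and there 0 of 15 probes differed (limma, 2 at an unadjusted p under 0.05; 0.427% of all detected probes called), 5 of 15 were higher on slide 3, and the median was -0.03. Within slides, 0 of 15 probes differed between CUMS and control mice on slide 1 (limma, 0 at an unadjusted p under 0.05; 0% of all detected probes called), 0 between CUMS and OVX mice on slide 2 (1 unadjusted; 0.0423% of all), and 0 between OVX+CUMS and OVX mice on slide 3 (0 unadjusted; 0% of all). The slide difference and the ovariectomy effect cannot be told apart for these genes.

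Stress was the other factor. None of the 15 probes passed the test for the CUMS effect in mPFC (limma, 4 at an unadjusted p under 0.05), where 4.19% of all detected probes did. Those 4 were Itgam A_55_P1977929 at 0.23 (SE 0.07, adjusted p = 0.074), Tmem119 at 0.13 (SE 0.05, adjusted p = 0.149), C1qb at 0.12 (SE 0.06, adjusted p = 0.209) and Csf1r A_55_P2025078 at 0.10 (SE 0.04, adjusted p = 0.162). For the interaction of ovariectomy and stress, 0 of 15 passed (1 unadjusted), against 4.49% of all detected probes. OVX+CUMS mice differed from control mice in 11 of 15 probes, 10 higher and 1 lower, where 33.4% of all did (20.4% higher and 13% lower), and without OVX+CUMS mouse 5 this count was 9. After Itgam A_55_P1977929, the differences in OVX+CUMS mice were 0.29 (SE 0.08, adjusted p = 0.00517) for Tmem119, 0.28 (SE 0.08, adjusted p = 0.0106) for Trem2 and 0.28 (SE 0.08, adjusted p = 0.00916) for C1qb. OVX mice differed from control mice in 9 of 15, with 7 higher and 2 lower, where 33.5% of all did (20.2% higher and 13.4% lower). CUMS mice differed from control mice in 1 of 15 probes, Tmem119, where 16.9% of all did. On slide 1 alone, Tmem119 in CUMS mice was 0.02 (SE 0.08) above control mice. The CUMS mice of slide 2 were 0.31 (SE 0.06) above those of slide 1. These comparisons share the control mice. Between OVX+CUMS and control mice, 0 of 15 differed with slide as a block (limma, 0 unadjusted), and 4 did with the spike-in scaling, 1 of them higher. The shares of all detected probes with that scaling, or without mouse 5, are not given here.

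Mouse-to-mouse variation within groups showed which members varied together. After the group means were removed, 33 of the 105 pairs of probes were correlated over the 24 mPFC arrays at an adjusted p under 0.05 by permutation of mice within groups, and all 33 were positive. Both probes of a pair were read on the same arrays, so they share slide and scaling. The share of correlated pairs among all detected probes is not given here. The permutation exchanged mice of a group across slides, so slide offsets can enter its p-values. With slide means removed too, r is given without a p-value. C1qa and C1qb had a Pearson r of 0.90 and a Spearman rho of 0.86 (permutation p = 1e-05 for each, the smallest that 100000 permutations can give; adjusted p = 0.000262 and 0.000525), with r of 0.83 without the 2 arrays farthest from the median and 0.89 with slide means removed too. C1qb and C1qc had r of 0.90 (rho 0.90), and C1qa and C1qc had r of 0.85 (rho 0.79). Cx3cr1 A_55_P2007964 and Csf1r A_55_P2025078 had r of 0.87 (rho 0.83), and the Cx3cr1 probes had r of 0.74 (rho 0.71) with each other. Of the 33 pairs, 32 kept r above 0.4 without the 2 farthest arrays and 28 did with slide means removed too. The 5 that did not were all pairs of Tmem119, among them that with C1qa (0.57, and 0.24 with slide means removed).

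Other probes took little part in these pairs. P2ry12, Csf1r A_55_P2025073 and the 3 Itgam probes took part in 0 of the 33 correlated pairs, and Trem2 in 1, with Tmem119 (r 0.54, rho 0.64, adjusted p = 0.0239 and 0.00969). Csf1r A_55_P2025073, the probe that was lower after ovariectomy, had r of 0.27 and -0.02 with the other Csf1r probes, which had r of 0.72 with each other. With slide means removed too, its r was 0.64 with A_52_P602091 and 0.19 with A_55_P2025078, and theirs was 0.59. Among the Itgam probes r was -0.45, 0.49 and -0.42.

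**Figure D3:**
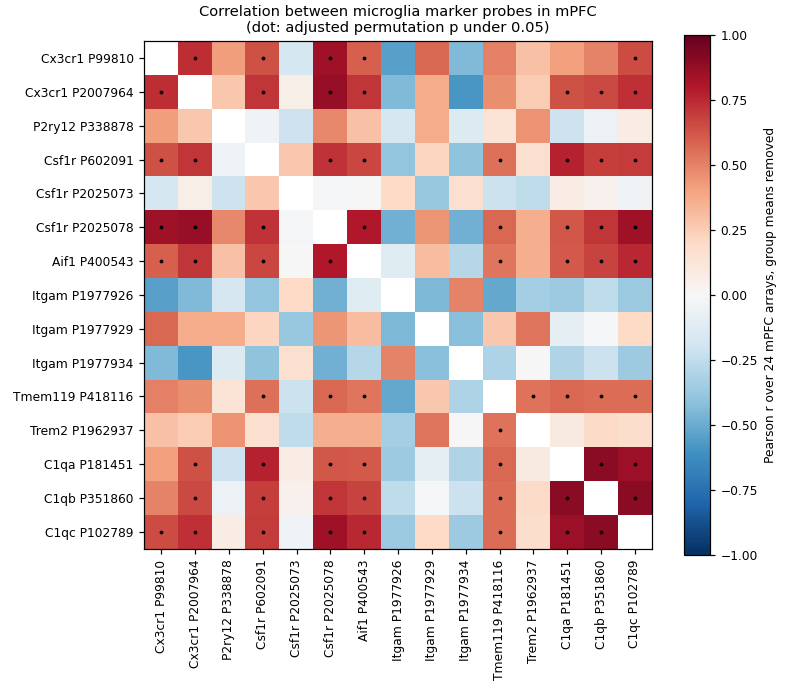
Pearson r between the 15 probes over the 24 mPFC arrays, with group means removed (colour, from -1 to 1; both axes list the probes). Dots mark the 33 pairs with an adjusted permutation p under 0.05, which include the C1qa, C1qb and C1qc probes with each other and none of the 3 Itgam probes.

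The symbols most like the mean of the 10 members over the 24 mPFC arrays, out of 20631 and with group means removed, were Fcer1g (r 0.89), Ncf4 (0.855), Unc93b1 (0.85), Gmfg (0.85) and Plcg2 (0.85). Here each member was read by its brightest probe, which for Itgam holds the repeat. With A_55_P1977929 in its place, an alternative chosen after seeing the data, the symbols were Ptpn18 (0.90), Casp6 (0.88), Mpeg1 (0.87), Plcg2 (0.86) and Vav1 (0.83), so that 1 symbol, Plcg2, was in both lists.

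Other genes of microglia were counted in mPFC in the same way, each gene read by its brightest detected probe, and the counts stand beside the 30.9% of all detected probes called. Of 20 genes of resting (homeostatic) microglia, 5 were higher after ovariectomy and 1 lower, with a median of 0.09 against 0.04 over all detected probes. They included Lag3 (0.36) and Selplg (0.21), and Tgfbr1, a receptor of TGF-beta, was lower (-0.20). Of 11 detected ligands, adaptors and factors that signal with the members, 4 were higher and none lower, with a median of 0.09: Il34, the second ligand of Csf1r (0.20), Hcst (0.19), Tgfb1 (0.19) and Tyrobp, the adaptor of Trem2 (0.17), the last named after its value was seen. Of 16 genes common to myeloid cells, 5 were higher and none lower (median 0.12), among them Cd14 (0.29), Ptprc (0.28) and Fcer1g (0.16). Of 10 genes of activated microglia, 3 were higher and 1 lower (median 0.05), including Axl (0.19), Ctsd (0.16) and the growth factor Igf1, which was lower (-0.30). Of 10 other complement genes, 0 were higher and 1 lower, the central component C3 (-0.215), with a median of -0.15. With slide as a block, 0 genes of these 5 lists passed the test (limma, 5 at an unadjusted p under 0.05 in all).

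Markers of other cells were set beside the members. After ovariectomy, 0 of 7 astrocyte, 0 of 5 endothelial, 0 of 6 erythroid and 0 of 5 border macrophage genes differed in mPFC (limma, 0, 0, 1 and 0 at an unadjusted p under 0.05). Of 7 oligodendrocyte genes Cnp was higher (0.37, and 0.38 with slide as a block), and of 7 neuron genes Slc17a7 was (0.21 and 0.23). The median effect was 0.23 over the oligodendrocyte genes, above the 0.16 of the members, and 0.03 over the neuron genes. It was 0.01 for the astrocyte, 0.05 for the endothelial, -0.01 for the erythroid and -0.26 for the border macrophage genes. Among blood cells, 1 of 4 neutrophil genes was lower (Elane, -0.69), 1 of 4 monocyte genes (Vcan, -0.25) and 2 of 4 T and NK cell genes (Cd4, -0.56, and Nkg7, -0.40), and of 5 meningeal and choroid plexus genes Col1a1 was lower (-0.78). All these calls stand beside the 30.9% of all detected probes, and 0 genes of the 10 lists were called with slide as a block (limma, 4 at an unadjusted p under 0.05). The summed scaled signal of the 4 neutrophil genes ranged from 3.91 to 5.47 for control, 2.56 to 4.39 for CUMS, 2.34 to 2.98 for OVX and 2.38 to 9.12 for OVX+CUMS mice, the last being mouse 5. Among the defining neutrophil genes, S100a8, Ngp, Ltf and Mpo were not detected in mPFC. The part of these cells in the member results was not tested.

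In blood, 9 probes of 6 members were detected, and the members as a set did not move one way. C1qb was lower after ovariectomy and higher with stress, Tmem119 and Itgam A_55_P1977929 were higher with stress, and Csf1r A_55_P2025073 was higher in the mean over ovariectomised mice. That is 2 of 9 probes for ovariectomy, where 55.1% of all 20768 detected probes differed (27.4% higher and 27.7% lower), and 3 of 9 for stress, all higher, where 48.5% did (19.1% higher). Aif1, Trem2, Cx3cr1 A_52_P99810 and Itgam A_55_P1977926 were above background on 23 of 24 blood arrays each and so not counted as detected. C1qa was above background on 1 of 24 blood arrays and C1qc on none.

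C1qb was thus the only C1q chain detected in blood, and its lowest, median and highest levels were 1.72, 2.00 and 2.19 for control, 2.08, 2.37 and 2.93 for CUMS, 1.35, 1.53 and 1.80 for OVX and 1.32, 1.79 and 2.06 for OVX+CUMS mice. The OVX and CUMS groups did not overlap, and the share of all detected blood probes that separate in this way is not given here. The ovariectomy effect was -0.54 (SE 0.10, adjusted p = 0.000246) and the CUMS effect was 0.30 (SE 0.10, adjusted p = 0.0172). The median signal before scaling was 430, 426, 435 and 425 in the control, CUMS, OVX and OVX+CUMS groups, and with the spike-in scaling the effects were -0.20 (SE 0.11, adjusted p = 0.131) and -0.0012 (SE 0.11). With slide as a block they were -0.28 (SE 0.22, adjusted p = 0.854) and 0.43 (SE 0.14, adjusted p = 0.0177). Erythroid genes moved alongside: 8 of 8 were lower after ovariectomy (median -0.58) and 5 of 8 higher with stress (median 0.28), which became 0 of 8 (limma, 0 unadjusted) and 8 of 8 with slide as a block, and their part in the C1qb result was not tested.

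Tmem119 in blood had lowest, median and highest levels of -0.49, -0.22 and 0.0011 for control, -0.26, 0.35 and 0.69 for CUMS, -0.55, -0.36 and -0.10 for OVX and -0.40, 0.04 and 0.35 for OVX+CUMS mice. Itgam A_55_P1977929 had 1.17, 1.23 and 1.87 for control, 1.47, 1.93 and 2.04 for CUMS, 1.19, 1.31 and 1.60 for OVX and 0.94, 1.38 and 2.39 for OVX+CUMS mice. Stressed and unstressed mice overlapped for both genes. The CUMS effects were 0.39 (SE 0.12, adjusted p = 0.0096) for Tmem119 and 0.35 (SE 0.12, adjusted p = 0.024) for Itgam A_55_P1977929, and with the spike-in scaling they were 0.10 and 0.05, neither past the test. With slide as a block Tmem119 kept its call (0.45, SE 0.17, adjusted p = 0.0321) and Itgam A_55_P1977929 did not (0.29, SE 0.18, adjusted p = 0.167).

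Cx3cr1 A_55_P2007964 in blood had lowest, median and highest levels of 1.70, 2.28 and 2.59 for control, 0.39, 1.54 and 2.35 for CUMS, 2.15, 2.34 and 2.51 for OVX and 1.81, 1.90 and 3.602 for OVX+CUMS mice. The value of 3.602 belongs to mouse 5. The CUMS effect was -0.43 (SE 0.20, adjusted p = 0.0749), and without that array it was -0.57 (SE 0.16, adjusted p = 0.00727). Blocking on slide, it was -0.68 (SE 0.27, adjusted p = 0.0416). Without mouse 5 the probes called in blood were 5 of 9 for stress, with Csf1r A_52_P602091 (-0.33, SE 0.13, adjusted p = 0.0333) added as well, and 3 of 9 for ovariectomy, with Itgam A_55_P1977929 added (-0.26, SE 0.10, adjusted p = 0.0298). With all mice, 48.5% of all detected probes were called for stress and 55.1% for ovariectomy. The shares without mouse 5 are not given here. The blood monocyte list was 1.53 above average in mouse 5 and at most 0.53 elsewhere.

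Of the remaining blood probes, only Csf1r A_55_P2025073 was called for an effect with all mice. Csf1r A_55_P2025078 spanned 5.42 to 5.97 for control, 4.58 to 5.77 for CUMS, 5.21 to 5.61 for OVX and 5.21 to 7.16 for OVX+CUMS mice. In the same order, Csf1r A_52_P602091 spanned -0.44 to 0.66, -0.63 to 0.40, -0.0027 to 0.35 and -0.58 to 2.29. Itgam A_55_P1977934 spanned 7.08 to 7.98, 7.19 to 7.88, 7.19 to 7.78 and 7.45 to 7.92. CUMS against control was -0.42 for A_55_P2025078 (exact permutation p = 0.0368, unadjusted). P2ry12 spanned 1.68 to 3.48 for control, 2.90 to 3.58 for CUMS, 2.12 to 3.28 for OVX and 2.37 to 2.94 for OVX+CUMS mice, with effects of -0.29 (SE 0.17) for ovariectomy and -0.01 (SE 0.17) for stress, neither past the test. Csf1r A_55_P2025073 had lowest, median and highest levels of 1.91, 1.99 and 2.16 for control, 1.78, 1.94 and 2.03 for CUMS, 1.82, 2.01 and 2.17 for OVX and 2.14, 2.25 and 2.63 for OVX+CUMS mice. OVX and control mice overlapped, and the OVX+CUMS mice lay above all CUMS mice. The share of all detected blood probes that separate these 2 groups is not given here. Its ovariectomy effect was 0.18 (SE 0.07, adjusted p = 0.0248), which averages -0.03 (SE 0.09) for OVX against control and 0.38 (SE 0.09) for OVX+CUMS against CUMS mice, and it was 0.07 (SE 0.14, adjusted p = 0.960) with slide as a block. Within slide 2, where CUMS and OVX mice lay side by side, 4 of 9 probes differed, against 52.2% of all: CUMS mice were higher for C1qb (0.71), Itgam A_55_P1977929 (0.58) and Tmem119 (0.50) and lower for Cx3cr1 A_55_P2007964 (-0.64). For the interaction, 0 of 9 passed in blood (limma, 1 unadjusted; 1.42% of all), and 0 of 9 differed between OVX+CUMS and control mice (1 unadjusted; 6.26% of all).

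**Figure D4:**
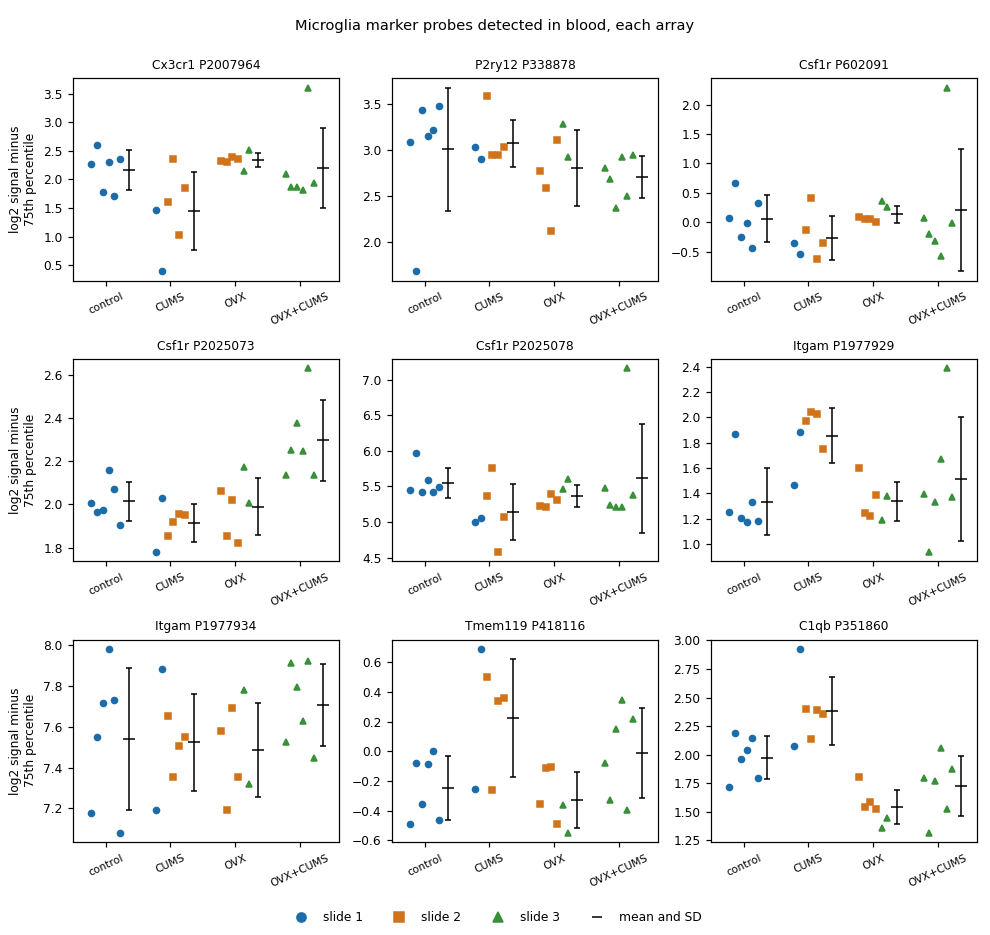
Level of the 9 probes detected in blood in the 24 blood arrays, as log2 signal minus the array's 75th percentile (y axis), by group (x axis). Each point is 1 mouse, its colour and shape give the slide, and the bars are the group mean and SD (n = 6). For C1qb the OVX mice lie between 1.35 and 1.80 and the CUMS mice between 2.08 and 2.93, and 1 OVX+CUMS mouse stands at 3.602 for Cx3cr1. The share of all detected blood probes that separate OVX and CUMS mice is not given here.

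Between the tissues, all 9 probes detected in both differed, as did 96.5% of all 17545 probes detected in both (41.8% higher in mPFC and 54.7% lower). Cx3cr1 A_55_P2007964 was 1.85 higher in mPFC than in blood, Tmem119 1.62 and Csf1r A_52_P602091 0.44, while Itgam A_55_P1977929 was lower in mPFC (-3.15). These kept their direction with the spike-in scaling (3.76, 3.53, 2.35 and -1.23). The other probes, P2ry12 (-1.65), Csf1r A_55_P2025073 (-1.79), Csf1r A_55_P2025078 (-0.25), C1qb (-0.24) and Itgam A_55_P1977934 (-1.76), were lower in mPFC by the 75th percentile and higher by the spike-in scaling (0.27, 0.13, 1.67, 1.68 and 0.15, of which 0.13 did not pass the test), under which the median of all probes moved from -0.43 to 1.48. C1qc, which was not well above background on any blood array, was at least 79.6-fold higher in mPFC, taking as its blood level on each array the lowest signal of a probe well above background.

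The ovariectomy effect itself differed between the tissues for 4 of 9 probes, where it did for 39.3% of all. In mPFC minus blood it was 0.71 for C1qb, 0.57 for Itgam A_55_P1977929, 0.32 for Tmem119 and -0.33 for Csf1r A_55_P2025073, that of Tmem119 turning to -0.16 with the spike-in scaling, and with slide as a block it was called for none (limma, 1 at an unadjusted p under 0.05). The CUMS effect differed for 0 of 9 (limma, 3 at an unadjusted p under 0.05; 51.4% of all), and for 4 of 9 without the blood array of OVX+CUMS mouse 5.

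**Figure D5:**
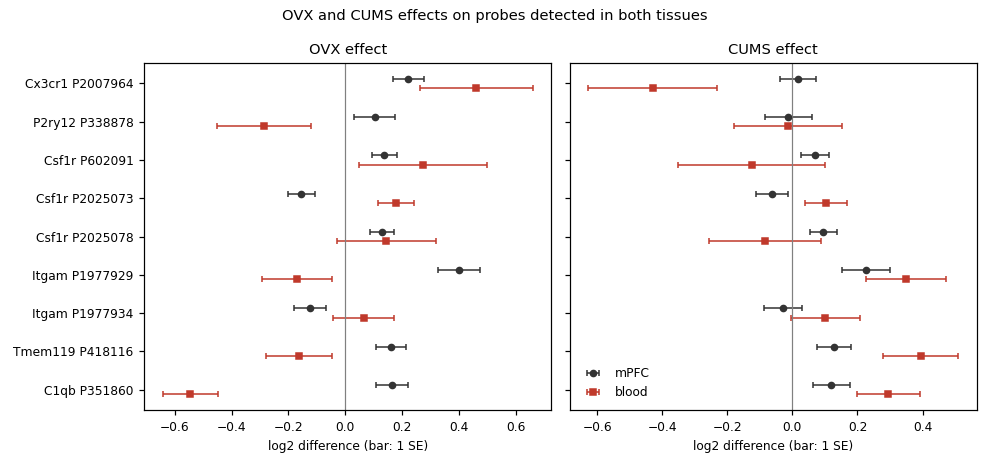
Ovariectomy effect and CUMS effect (log2 difference, bars are 1 SE) in mPFC and in blood for the 9 probes detected in both tissues. C1qb lies at 0.16 in mPFC and -0.54 in blood for ovariectomy.

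The title of the deposited data names the relation of brain and blood within a subject. Over the 24 mice, with group means removed, the blood and mPFC levels of the same mouse were not correlated at an adjusted p under 0.05 for any of the 9 probes, by permutation of mice within groups. The highest r was 0.46 for Cx3cr1 A_55_P2007964 (rho 0.26, permutation p = 0.082 and 0.285, adjusted p = 0.714 and 0.760), which became 0.18 without the 2 mice farthest from the median blood level and 0.30 with slide means removed. The lowest was -0.32 for C1qb (rho -0.28, permutation p = 0.205 and 0.226, adjusted p = 0.714 and 0.760).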

How the data were processed

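RNA of mPFC and blood from 24 mice was measured on 48 Agilent one-colour arrays. The authors extracted each spot intensity in Feature Extraction 10.7.3.1, which subtracts background and spatial trends. The authors also deposited log2 values scaled to the 75th percentile, from which the values used here differed by less than 0.001 up to a constant per array. Here, log2 processed signal minus the 75th percentile over non-control probes was used, with marked spots left out and spots of a probe averaged. The 75th percentile was 572 to 689 in mPFC and 54.9 to 192 in blood, and the number of arrays limits the precision. A probe was detected when well above background on all 24 arrays of a tissue and over 50 on at least 2.

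Groups came from the sample labels. Linear models were fitted by limma 3.58.1 under R 4.3.3 (2-sided, Benjamini-Hochberg adjusted over all detected probes, 0.05), after checking the fit on simulated data. In the comparison of tissues the mouse was a random effect (correlation 0.059). Correlations used permutation within groups. Alternatives were other scalings, background corrections, filters, slide or replicate number as a block, and leaving out each array. Named were all members, and up to 3 called genes of each other list. The members and lists were chosen with earlier results of these data known. A number shared by mice of 2 groups is not a pairing: same-numbered mice correlated at -0.23 to 0.39 in mPFC and -0.51 to 0.49 in blood. Human samples were not analysed here.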

Additional observations from a re-analysis of the deposited data

Results flagged for a closer look

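Of 120 groups of 6 arrays, 16 (13.3%) held an array whose gap to its nearest neighbour passed Dixon's 95% critical value, where chance gives about 1 in 20. OVX+CUMS mouse 5 in blood accounts for 4 of them, at 0.32 for Cx3cr1 A_52_P99810, 3.602 for Cx3cr1 A_55_P2007964, 2.29 for Csf1r A_52_P602091 and 7.16 for Csf1r A_55_P2025078, and Trem2 at 2.16 is one more. Control mouse 2 in blood stood low for P2ry12 (1.68) and apart for Csf1r A_55_P2025078 (5.97) and Itgam A_55_P1977929 (1.87). Single blood arrays also stood apart for P2ry12 in CUMS mouse 3 (3.58), C1qb in CUMS mouse 2 (2.93) and Trem2 in control mouse 5 (-1.77). C1qc, not above background in blood, stood apart in control mouse 4 (-3.97), CUMS mouse 2 (-3.99) and OVX+CUMS mouse 6 (-4.41). In mPFC the arrays were OVX mouse 2 for Cx3cr1 A_55_P2007964 (4.17) and OVX+CUMS mouse 6 for P2ry12 (1.87).

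The ovariectomy effect differed between mPFC and blood by the test of the difference itself for C1qb (0.71), Itgam A_55_P1977929 (0.57), Tmem119 (0.32, and -0.16 with the spike-in scaling) and Csf1r A_55_P2025073 (-0.33), and for none with slide as a block (limma, 1 at an unadjusted p under 0.05).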

How the results depend on the processing

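The mPFC ovariectomy count of 11 member probes was 6 with the 75th percentile over detected probes, 3 with the spike-in shift and 7 with no detection filter. It was 7 of 9 when only probes detected on all 48 arrays were kept, and 0 with slide as a block. OVX+CUMS against control in mPFC (11) gave 4 by spike-in scaling, 7 of 9 among the probes detected on all 48 arrays and 0 with slide as a block. In blood, ovariectomy (2) gave 4 by quantile normalization, 5 by spike-in scaling and 0 when slide was a block. Stress in blood (3) gave 1 with the spike-in shift and 0 within slide 1 and within slide 3, where fewer arrays were tested. OVX+CUMS against control in blood (0) gave 1 each by each probe tested alone, quantile normalization, normexp and the percentile of detected probes. mPFC minus blood (9) gave 15 of 15 with no filter, its ovariectomy difference (4) gave 0 with slide as a block, and its CUMS difference (0) gave 2 with quantile normalization and 1 with the 75th percentile over detected probes. The cause was not tested. Shares of all detected probes under these settings are not given in this section. A fixed slide term could not be fitted for mPFC minus blood, and a random one, chosen after seeing the data, gave 8.

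Leaving out each array gave 10 to 12 for ovariectomy, 0 to 1 for stress, 0 for the interaction and 9 to 12 for OVX+CUMS against control in mPFC, and 2 to 4, 3 to 5, 0 to 1 and 0 to 1 in blood. For mPFC minus blood it gave 9 throughout, 3 to 5 for the ovariectomy difference and 0 to 4 for the CUMS difference, and 0 for the correlation of the tissues. The mPFC stress count was 1 without CUMS mouse 1 or 2, the blood ovariectomy count 4 without control mouse 2, the blood interaction 1 without CUMS mouse 2 and OVX+CUMS against control in blood 1 without control or CUMS mouse 2. The CUMS difference was 4 without the blood array of OVX+CUMS 5, 2 without that of control 5, CUMS 1 or CUMS 4, and 1 without that of control 3 or 4, CUMS 6, OVX 3 or 5, or OVX+CUMS 1, 2 or 6, or without the mPFC array of CUMS 1, OVX 1, or OVX+CUMS 2 or 5. The mouse correlation of the full data was used when 1 array was left out. With the replicate number as a block, which is no pairing of mice, the counts were 11, 0, 0 and 11 in mPFC and 2, 3, 0 and 0 in blood, unchanged from the main fit. Without the mouse block the tissue counts were 9, 4 and 0.

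Reversed with the spike-in shift were Csf1r A_55_P2025078 for ovariectomy in mPFC (-0.0063), OVX+CUMS against control in mPFC for Cx3cr1 A_55_P2007964 (-0.0208), Csf1r A_52_P602091 (-0.0523), Csf1r A_55_P2025078 (-0.0352), Aif1 (-0.0773) and C1qa (-0.0233), stress in blood for C1qb (-0.0012), mPFC minus blood for P2ry12 (0.27), Csf1r A_55_P2025073 (0.13), Csf1r A_55_P2025078 (1.67), Itgam A_55_P1977934 (0.15) and C1qb (1.68), and the ovariectomy difference of Tmem119 (-0.16). With slide as a block Aif1 reversed for ovariectomy (-0.022) and, with Cx3cr1 A_55_P2007964 (-0.0879), for OVX+CUMS against control (-0.11), and with normexp Csf1r A_55_P2025078 reversed for mPFC minus blood (0.29). With the authors' values all 40 called results of single probes, among which a probe can recur, kept their side of the threshold.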
